A study of Mus musculus with 6 samples.

Results

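Bone morphogenetic protein (BMP) ligands and their receptors were examined in the superior and inferior parts of the embryonic outflow tract, the vessel of the mouse heart that later forms the aorta and pulmonary trunk. The members were the ligand genes Bmp2, Bmp4, Bmp5, Bmp6, Bmp7 and Bmp10 and the receptor genes Bmpr1a, Bmpr1b, Bmpr2 and Acvr1. Every probe set that the platform annotation assigns to one of these 10 genes alone was taken, which gave 25 probe sets of the 45101 on the array, 10 for ligands and 15 for receptors. The tissue came from CD1 mouse embryos at embryonic day 10.5, and RNA of pooled pieces was measured on Affymetrix GeneChip mouse genome arrays. The study has 3 superior and 3 inferior pools, numbered 1, 6 and 7 in both regions, with no treatment or mutation in either. The labels describe each pool as 6 littermate embryos, while the design text gives 7 dissected pieces. Separate litters are not stated, so p-values speak for these pools only. Where regions are compared within pools, p-values rest on how the superior minus inferior differences vary among pools, moderated with the spread of other probe sets.

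BMP ligands are secreted dimers that bring together type I receptors, such as the products of Bmpr1a, Bmpr1b and Acvr1, and type II receptors, such as that of Bmpr2. The type I receptor then phosphorylates the transcription factors SMAD1, SMAD5 and SMAD9, which enter the nucleus with SMAD4. In the outflow tract this signalling is known to act in the growth of the tube, in the formation of its cushions and in its division into separate vessels. Bmp2 and Bmp4 encode closely related ligands, and Bmp5, Bmp6 and Bmp7 form another closely related group.

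Bmp5 and Bmp6 showed the largest regional differences among the tested members, in opposite directions, and the sequences around their start sites are shown for that reason. Each runs from 250 bases before to 50 bases after the gene's start, 5′ to 3′, from RefSeq on build GRCm38.p6. The Bmp5 window is chr9:75775115-75775414 on the plus strand and the Bmp6 window chr13:38345466-38345765 on the plus strand. Capitals mark GATAA in Bmp5 and the T-box motif GGTGTG in Bmp6, each read on the opposite strand.
Bmp5: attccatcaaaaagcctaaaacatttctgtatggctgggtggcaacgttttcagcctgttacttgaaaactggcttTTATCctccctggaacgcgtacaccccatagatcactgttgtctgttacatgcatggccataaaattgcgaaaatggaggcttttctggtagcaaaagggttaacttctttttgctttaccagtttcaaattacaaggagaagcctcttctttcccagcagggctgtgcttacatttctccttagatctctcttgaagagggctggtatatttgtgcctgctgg
Bmp6: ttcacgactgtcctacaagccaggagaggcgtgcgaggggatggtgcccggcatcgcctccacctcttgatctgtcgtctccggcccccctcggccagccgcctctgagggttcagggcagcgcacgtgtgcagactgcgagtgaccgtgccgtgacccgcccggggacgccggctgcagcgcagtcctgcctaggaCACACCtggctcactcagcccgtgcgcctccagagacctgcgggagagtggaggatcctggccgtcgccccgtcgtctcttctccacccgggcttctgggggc
The Bmp5 window had 43.3% G and C bases and the Bmp6 window 69.3%, against a median of 52.7% over 32851 such windows. Windows holding GATAA on either strand made up 25.4% of the total, and those holding GGTGTG 19.0%. The TATA box TATAAA was in neither window on either strand. The nuclear receptor motif (AGGTCA) and the element of SMAD proteins rich in G and C (GGCGCC) were not in them either. The E-box CANNTG, not marked here, was in the Bmp6 window and not in the Bmp5 window, against 72.3% of all windows. These matches describe the letters only.

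The values are MAS5 signals, which combine the probes of a probe set into 1 linear intensity per array, scaled by the authors to a common level. The signals of different probe sets are not on a common scale. Each probe set, or a ratio or sum of them within an array, is therefore compared between arrays only, and a sum mostly follows its brightest probe sets. The 27 control probe sets for Bacillus transcripts reached at most 8.0, which is taken as the background level. The median signal per array ranged from 13.9 to 17.6. Both arrays of pool 1 stood apart from the other 4. The 5′ over 3′ signal of the Gapdh controls was 0.769 in superior 1 and 0.452 in inferior 1, against 1.11 to 1.20 in the other arrays, and the 18S ribosomal RNA controls averaged 77.6 and 67.8 there, against 438.7 to 690.3. The superior 6 array had hybridisation controls at 1.63 times the median array. Heart muscle genes were bright in every array, Tnnt2, the cardiac troponin T, having signals of 4403, 5097 and 4595 in superior and 4028, 3952 and 4300 in inferior pools 1, 6 and 7.

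Of the 25 member probe sets, 18 from 8 genes passed the filter on dim signals (a mean above about 15.1) and were tested. Regions were compared within pool numbers, as superior minus inferior on the scale log2(signal + 3.2), with limma and with Benjamini-Hochberg adjustment over all 22518 probe sets tested. This paired fit called 0 member probe sets at an adjusted p threshold of 0.05, where 0.160% of all tested probe sets were called. At an unadjusted threshold of 0.05, 5 of the 18 (27.8%) passed, 2 higher and 3 lower in superior pools, against 11.0% of all tested probe sets. These 5 belonged to Bmp5, with 2 probe sets, Bmp6, Bmp2 and Bmp4, all ligands. No tested member probe set had superior and inferior values that did not overlap, where 9.21% of all tested probe sets did. The sign was the same in every pool for 6 of 18 (33.3%), against 34.0% of all. Of the 18 probe sets 9 were lower in superior pools, against 55.1% of all tested, and their median log2 difference was -0.01, against -0.02 over all tested. These include 5 probe sets of Bmpr1a. Taking the brightest probe set of each gene, 6 of 8 genes were lower and 2 higher, with a median of -0.15. Without the pool number in the fit, limma called 0 members and 0 of all tested probe sets, and 2 of 18 members passed an unadjusted threshold of 0.05, against 3.52% of all.

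**Figure D1:**
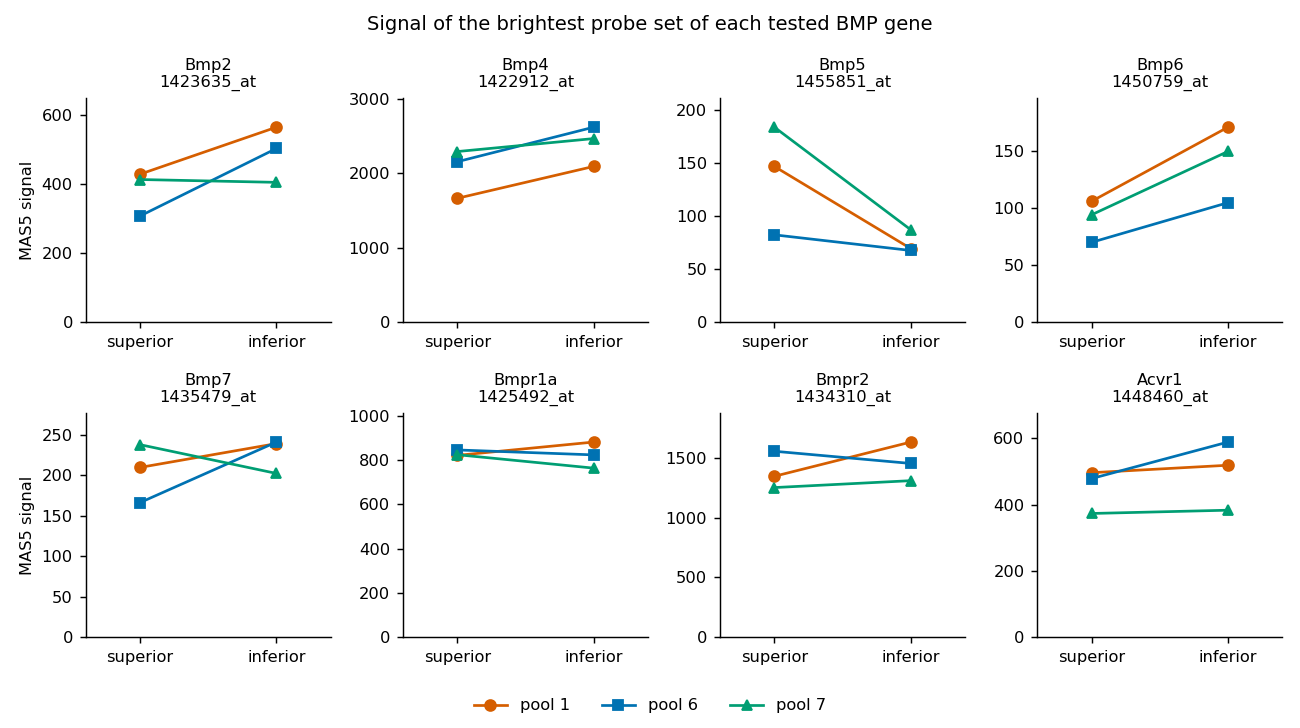
MAS5 signal (y axis, linear, from 0) of the brightest probe set of each tested gene in superior (left) and inferior (right) pools, with a line joining the arrays of 1 pool. The lines of Bmp5 slope down to inferior and those of Bmp6, Bmp4 and the receptor Acvr1 slope up in all 3 pools. Those of the ligands Bmp2 and Bmp7 and of the receptors Bmpr1a and Bmpr2 change direction between pools.

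Bmp5 encodes a ligand of the Bmp5, Bmp6 and Bmp7 group. Its brightest probe set, 1455851_at, had signals of 146.6, 82.3 and 183.5 in superior pools 1, 6 and 7, against 69.4, 67.6 and 87.1 in the inferior pools of the same numbers. The superior value was the higher one in every pool, but superior 6 lay below inferior 7, so the groups overlapped. The means were 137.5 ± 51.2 in superior and 74.7 ± 10.8 in inferior pools (SD, n = 3 each), a 1.73-fold difference on the log2(signal + 3.2) scale. The log2 difference was 0.79 ± 0.17 (SE of the limma fit, here and below), with a 95% interval of 0.40 to 1.17, and limma's adjusted p was 0.170. The fit moderates SE and interval with the spread of other probe sets, so they are not the spread of these pools alone. The SD of the 3 pool differences was 0.45. By pool it was 1.05, 0.27 and 1.05 in pools 1, 6 and 7, so pool 6 differed from the others. Without pool 6 the difference was 1.05 (limma adjusted p = 0.00689), in a fit with 1 pool fewer to estimate the spread from. It was 0.66 both without pool 1 (adjusted p = 0.888) and without pool 7 (adjusted p = 0.219).

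The other Bmp5 probe sets ran the same way. The probe set 1421283_at had signals of 34.0, 22.3 and 42.6 in superior, against 17.1, 13.8 and 27.4 in inferior pools, a log2 difference of 0.68 ± 0.18 (limma adjusted p = 0.269). Here pool 6 did not stand apart, with differences of 0.87, 0.58 and 0.58 in pools 1, 6 and 7. The dimmest, 1421282_at, had signals of 12.2, 19.2 and 19.4 against 3.4, 3.5 and 11.8, of which those of inferior 1 and inferior 6 lay within background. It was not tested, and it was the one Bmp5 probe set whose regions did not overlap.

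Bmp6 encodes another ligand of that group and had 1 probe set, 1450759_at. Its signals were 105.9, 70.0 and 94.1 in superior, against 170.7, 104.7 and 149.5 in inferior pools. The superior value was the lower one in every pool, and the regions overlapped narrowly, inferior 6 lying just below superior 1. The means were 90.0 ± 18.3 and 141.6 ± 33.7 (SD, n = 3 each), the superior level being 0.647 times the inferior one on the same scale. The log2 difference was -0.63 ± 0.11, with a 95% interval of -0.88 to -0.37 (limma adjusted p = 0.106), and it was -0.67, -0.56 and -0.65 by pool. This was the smallest adjusted p among the members. The difference was -0.66 without pool 6 (limma adjusted p = 0.0402), -0.61 without pool 1 (adjusted p = 0.852) and -0.62 without pool 7 (adjusted p = 0.113).

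Because Bmp5 and Bmp6 ran in opposite directions, their ratio within an array was described as well. The log2 value of Bmp5 minus that of Bmp6 was 0.46, 0.22 and 0.94 in superior, against -1.26, -0.61 and -0.76 in inferior pools, and the regions did not overlap. The ratio differed between regions by 1.72, 0.83 and 1.70 in pools 1, 6 and 7 (mean 1.42 ± 0.51, SD, n = 3). The pair was chosen for its opposite directions, so no test is given.

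Bmp2, a ligand that the atrioventricular canal needs for its cushions, had signals of 428.9, 307.9 and 413.5 in superior, against 564.9, 503.3 and 405.3 in inferior pools. The superior value was the lower one in pools 1 and 6 but not in pool 7, where the values were nearly equal. The log2 difference was -0.36 ± 0.13 (95% interval -0.66 to -0.05, limma adjusted p = 0.415), and it was -0.18 without pool 6 and -0.55 without pool 7. The SD of the 3 pool differences was 0.37. Without the trend and robust variance the unadjusted limma p of Bmp2 was 0.0719, above the threshold of 0.05. Bmp4, a ligand of outflow tract muscle that the division of the tube requires, had signals of 1665, 2156 and 2293 in superior, against 2093, 2620 and 2467 in inferior pools. It was lower in superior in every pool, but the regions overlapped, and pool number held 62.0% of the sum of squares of its log2 values and region 32.7%. Its log2 difference was -0.24 ± 0.09 (95% interval -0.44 to -0.03, limma adjusted p = 0.416). Under quantile normalization the difference was -0.37 (limma adjusted p = 0.176), over 1.5 times as large. Under 75th percentile scaling it was -0.20, with an unadjusted limma p of 0.0638. Without the trend and robust variance the unadjusted limma p was 0.0768, so under these settings Bmp4 missed the unadjusted threshold of 0.05.

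Bmp7, the third ligand of the Bmp5 and Bmp6 group, had 3 tested probe sets that did not run one way. The brightest, 1435479_at, had signals of 209.6, 166.2 and 237.7 in superior, against 239.0, 240.9 and 202.2 in inferior pools, with a log2 difference of -0.16 (95% interval -0.49 to 0.16). The regions overlapped, and the difference was 0.02 without pool 6. The probe set 1418910_at had 172.3, 115.8 and 132.5 against 143.8, 128.6 and 109.0 (log2 difference 0.13, interval -0.16 to 0.41). The dimmest, 1432410_a_at, gave 0.29 (interval -0.26 to 0.84). The limma adjusted p of the 3 was between 0.701 and 0.746. Bmp10, a ligand of the trabecular muscle of the chambers, was above background in 1 of 6 arrays, with signals of 3.5, 1.3 and 12.5 in superior against 2.1, 5.4 and 2.7 in inferior pools, and was not tested.

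**Figure D2:**
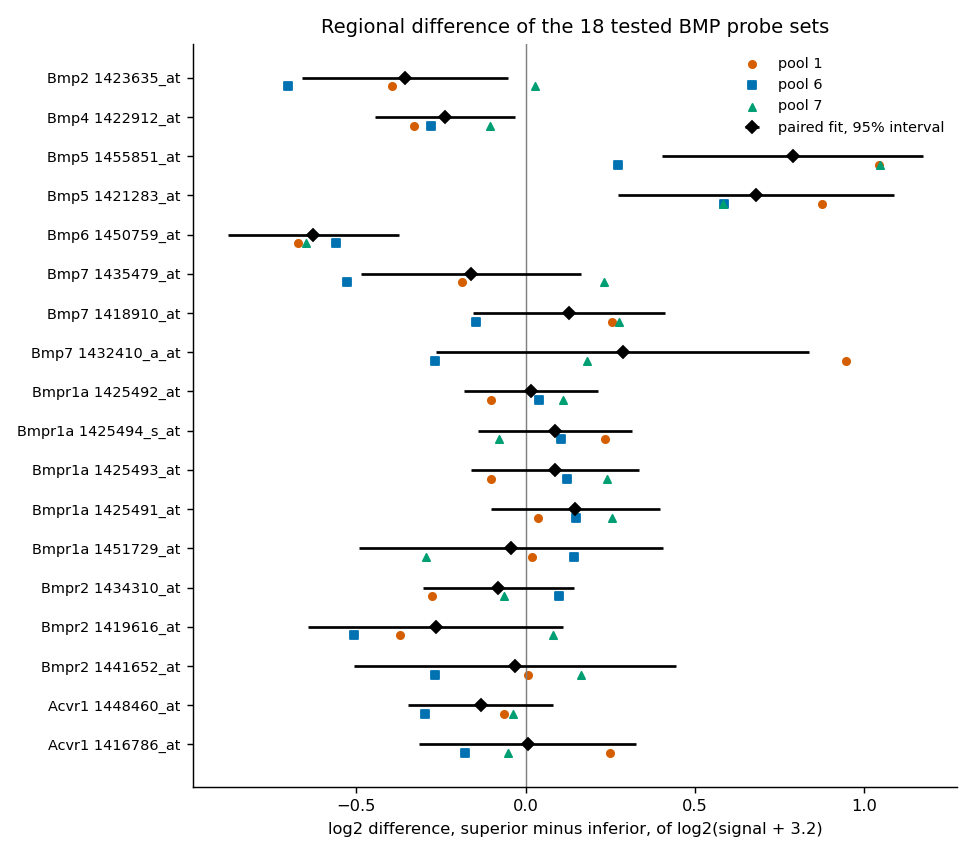
Log2 difference, superior minus inferior, of log2(signal + 3.2) (x axis) for the 18 tested member probe sets (rows). Diamonds and bars are the paired fit and its 95% interval, and coloured points are the 3 pools. The intervals of both Bmp5 probe sets lie above 0 and those of Bmp2, Bmp4 and Bmp6 below 0 before adjustment, and all receptor intervals span 0.

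Of the 10 tested receptor probe sets 0 passed the unadjusted threshold in the paired limma fit, against 11.0% of all tested probe sets, a share at which a count of 0 in 10 is near the background. Bmpr1a encodes a type I receptor that heart development requires, and its brightest probe set, 1425492_at, was nearly flat. Its signals were 820.5, 845.0 and 823.5 in superior, against 880.5, 822.7 and 763.0 in inferior pools. The log2 difference was 0.02 ± 0.09 with a 95% interval of -0.18 to 0.21, so a difference of the size seen for Bmp5 or Bmp6 lay outside the interval of this probe set. The sign turned under quantile normalization (-0.02) and cyclic loess (-0.04). The other 4 tested Bmpr1a probe sets had differences between -0.04 and 0.15. A sixth, 1445413_at, had signals of 3.3 to 11.2 and was not tested.

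Bmpr2 encodes the type II receptor for BMP ligands. Its brightest probe set, 1434310_at, had signals of 1346, 1555 and 1252 in superior, against 1632, 1453 and 1309 in inferior pools, which overlapped. Its log2 difference was -0.08 (95% interval -0.30 to 0.14, limma adjusted p = 0.801), and 0.02 without pool 1 and -0.16 under quantile normalization and under cyclic loess. The dimmer 1419616_at gave -0.27 (interval -0.64 to 0.11) and 1441652_at gave -0.03 (interval -0.51 to 0.44). Bmpr1b, a type I receptor known for cartilage formation in the limb, hardly exceeded background. Its brightest probe set, 1437312_at, had signals of 13.2, 8.5 and 8.7 in superior, against 8.4, 11.2 and 9.4 in inferior pools, and the other 2 lay within background in all but 1 array. None of the 3 was tested.

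Acvr1 encodes the type I receptor ALK2, which is known to act in the endothelium and neural crest of the outflow tract. Its brightest probe set, 1448460_at, had signals of 496.3, 478.6 and 373.3 in superior, against 518.8, 588.7 and 383.2 in inferior pools. The superior value was lower in every pool, but the pools differed among themselves by more than the regions did. The log2 difference was -0.13 ± 0.09 (95% interval -0.35 to 0.08, limma adjusted p = 0.645).

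A second Acvr1 probe set, 1416786_at, followed the pool number and not the region. It had signals of 22.1, 128.2 and 103.4 in superior and 18.1, 145.7 and 107.3 in inferior pools 1, 6 and 7. Both arrays of pool 1 were low, and the pools 6 and 7 lay 5.31-fold above them. Pool number held 99.4% of the sum of squares of its log2 values and the log2 difference between regions was 0.01 (interval -0.31 to 0.32). As a share of the brighter Acvr1 probe set on the same array, its signal was 4.45% and 3.49% in superior 1 and inferior 1 and between 24.7% and 28.0% on the other arrays. The third Acvr1 probe set, 1416787_at, stayed within background everywhere.

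The dim Bmp7 probe set 1432410_a_at behaved likewise, with 14.9, 34.4 and 44.8 in superior and 6.2, 42.1 and 39.1 in inferior pools. Its pools 6 and 7 lay 3.31-fold above pool 1, while the brighter Bmp7 probe sets were not lower in pool 1. These were the 2 of 18 tested member probe sets whose pool 1 level departed from that of pools 6 and 7 by a log2 value of 1 or more, against 4.45% of all tested probe sets, 925 lower and 76 higher in pool 1. The low 5′ over 3′ and 18S control signals of pool 1 moved with these values, and their part in them was not tested. Across all 18 tested members, pool number held a median of 65.2% of the sum of squares and region 9.24%, against 59.3% and 9.86% over all tested probe sets. Without pool 1 the log2 difference was 0.66 for Bmp5, -0.61 for Bmp6, -0.34 for Bmp2 and -0.19 for Bmp4, all in the same direction as with it.

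**Figure D3:**
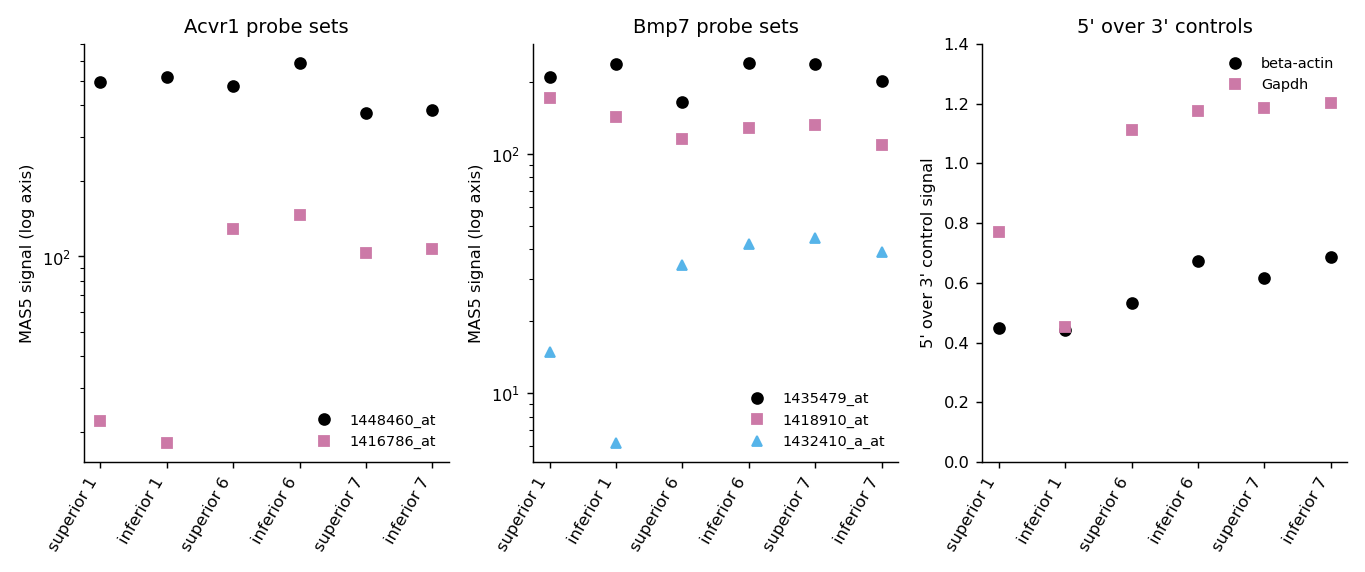
MAS5 signal on log axes of the tested Acvr1 and Bmp7 probe sets, and the 5′ over 3′ signal ratio of the beta-actin and Gapdh controls, on each of the 6 arrays (x axis, by pool). The probe sets 1416786_at and 1432410_a_at are low in both arrays of pool 1, where both control ratios are lowest as well.

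The genes that act with these ligands and receptors were read from the same fit, using the brightest probe set of each. Of 47 genes in these lists, 43 could be matched to a probe set naming 1 gene, and 30 were tested. The paired fit called 0 of the 30, 2 passed an unadjusted threshold of 0.05 (6.67%, below the 11.0% of all tested probe sets), and 21 were lower in superior pools (70.0%, against 55.1% of all). Without the pool number limma called 0, and 0 passed the unadjusted threshold. All 7 tested SMAD and Smurf genes had negative mean differences (median -0.09). In pool 7, however, Smad1, Smad4, Smurf1 and Smurf2 were higher in superior, and the median of the list was 0.05. The lowest was Smad7, an inhibitory SMAD, with signals of 264.8, 392.0 and 380.4 in superior against 357.1, 526.6 and 422.5 in inferior pools (log2 difference -0.33 ± 0.10, limma adjusted p = 0.331).

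Of the 9 tested target genes 7 were lower, with a median of -0.05. The T-box repressor gene Tbx2 had signals of 75.1, 58.4 and 94.7 in superior against 91.4, 69.0 and 140.8 in inferior pools (log2 difference -0.35 ± 0.13, limma adjusted p = 0.401). The Id genes, which encode inhibitors of helix-loop-helix factors and are induced by BMP signalling in many cells, lay near 0, Id1 at -0.05, Id2 at -0.03 and Id3 at 0.01, with Id4 at -0.20. Of 7 tested extracellular regulators 4 were lower (median -0.04), with Fst, which encodes the ligand-binding follistatin, at -0.42 and Nbl1, a BMP antagonist gene, at -0.42. The antagonist gene Nog lay within background in all arrays. Other receptors and co-receptors split into 3 lower and 4 higher (median 0.02), the largest differences being those of Tgfbr3, which encodes betaglycan, at 0.29 and the type II receptor gene Acvr2b at -0.17. None of the 4 other ligand genes with a probe set passed the filter. Bmp8a had signals of 5.8, 16.2 and 13.2 in superior against 6.3, 4.6 and 6.2 in inferior pools, and Bmp8b 7.0, 8.3 and 1.8 against 9.0, 9.2 and 20.0.

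Marker genes of several tissues that the dissected pieces could hold also differed between regions, and their part in the ligand values was not tested. By pool, the order of marker and ligand differences matched in some pairs and not in others. Median chamber muscle differences were 0.42, 0.60 and 0.58 in pools 1, 6 and 7. Bmp5 had 1.05, 0.27 and 1.05 with 1455851_at and 0.87, 0.58 and 0.58 with 1421283_at. Among chamber genes, Nppa, Irx4, Cited1, Smpx and Hey2 had their smallest difference in pool 6, while Myl2 and Myl3 had their largest there. Median cushion mesenchyme differences were -0.31, -0.21 and -0.04, where Bmp4 had -0.33, -0.28 and -0.11. Median neural crest differences were -0.25, -0.08 and -0.68, where Bmp2 had -0.39, -0.70 and 0.03. In such pooled tissue, fewer cells of a type and less RNA per cell cannot be told apart. Beside the higher Bmp5 signal, all 7 tested chamber muscle genes were higher in superior pools, with Gja5 within background. Their summed signals, mostly those of Myl2, Myl3 and Smpx, were 12635 to 15231 in superior against 10004.5 to 11509 in inferior pools. In the paired limma fit 1 of the 7, Irx4, was called (log2 difference 2.09, adjusted p = 0.0294), against 0.0933% of all tested probe sets called higher. All 7 tested epicardial genes were higher too, with sums of 1068 to 1839 against 666.4 to 910.2 and Msln within background, and 4 of the 7 were called in the paired fit, where 0.0933% of all tested probe sets were called higher. Beside the lower Bmp6, Bmp2 and Bmp4 signals, 4 of 5 tested neural crest genes were lower, while Sox10 was higher (0.31). The neural crest sums, mostly of Dlx2 and Tfap2a, were 122.0 to 144.0 against 175.8 to 211.7, with Foxd3 within background. Pharyngeal mesoderm genes were lower in 4 of 5 cases, with sums, mostly of Isl1 and Foxc2, of 1220 to 1405 against 1436 to 1852. Cushion mesenchyme genes were lower in 6 of 8 cases, although their sums overlapped at 6924 to 10484 against 6693 to 9999. These sums were mostly those of Vcan (0.06) and Postn (0.07), the cushion genes that were higher. None of these last 3 lists had a member called. Without the pool number limma called 0 genes of any marker list. Heart muscle genes were higher in 6 of 7 cases (median log2 difference 0.22), and like those of chamber muscle their sums did not overlap, at 27208 to 33472 against 24928 to 25425. Endothelial genes were higher in 6 of 8 cases (median 0.03), erythroid genes in 4 of 5 (0.23) and outflow smooth muscle genes in 3 of 5 (0.10), and 2 of the 7 pharyngeal endoderm genes were bright enough to be tested. At an unadjusted threshold of 0.05 in the paired limma fit, which 11.0% of all tested probe sets passed, 6 of 7 chamber muscle and 6 of 7 epicardial genes were higher. By the same threshold 2 of 5 neural crest, 3 of 5 pharyngeal mesoderm and 3 of 8 cushion genes were lower. So were 2 of 5 outflow smooth muscle genes, Rspo3 (-0.35) and Wnt11 (-0.29). Heart muscle had 3 of 7 genes higher and 1 lower, Nkx2-5 (-0.31), while 1 endothelial and 1 erythroid gene were higher and 0 pharyngeal endoderm genes passed.

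**Figure D4:**
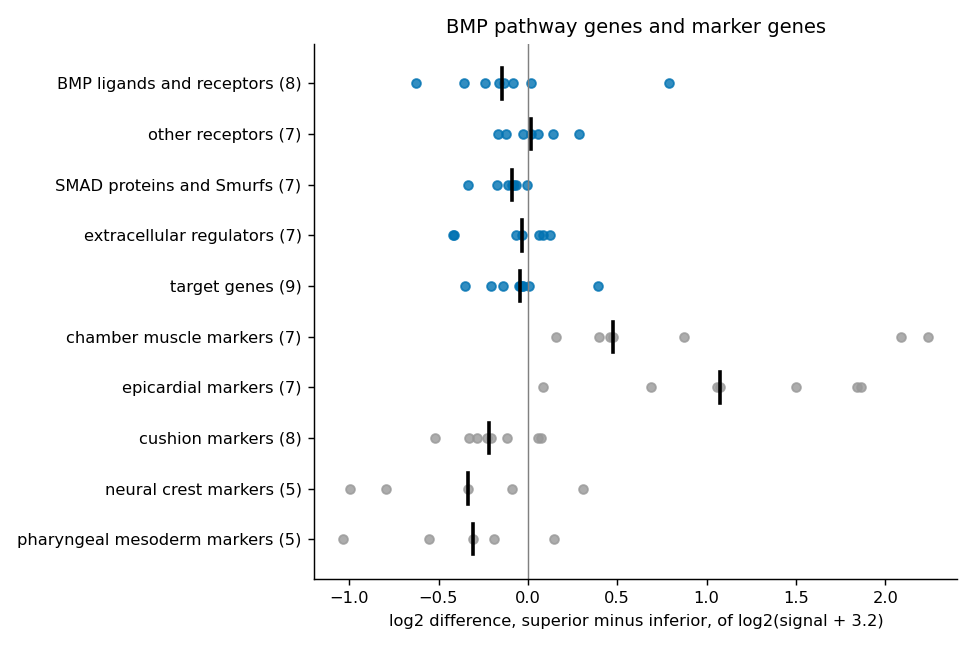
Log2 difference, superior minus inferior, of log2(signal + 3.2) (x axis) for the brightest probe set of each tested gene, by list (rows, number of genes in brackets). Black bars are medians. BMP pathway genes (blue) lie between -0.42 and 0.39 apart from Bmp5 and Bmp6, and the chamber muscle and epicardial marker genes (grey) lie above 0.

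The genes whose log2 values followed each of the 3 leading members most closely over the 6 arrays were read out as a description, since arrays of a pool are not independent. For Bmp5 these were Pctp, Ufc1, Qdpr and Nppa, the atrial natriuretic peptide gene of chamber muscle, with Pearson correlations of 0.977 to 0.988. Nppa had signals of 147.4, 45.9 and 295.4 in superior against at most 30.4 in the inferior pools, so its superior 6 value was also the lowest of its superior values. For Bmp6 they were Pnmt, which encodes the enzyme that makes adrenaline, Spred2, an inhibitor of the MAP kinase pathway, Arhgef25 and Srrm2 (0.983 to 0.992). Pnmt had signals of 36.3, 16.9 and 29.9 in superior against 75.5, 30.2 and 56.2 in inferior pools. For Bmp2 they were Btrc, Cacfd1, Rasa1 and Hipk2 (0.990 to 0.995). With 6 arrays such values are common, and 109, 247 and 233 probe sets of other named genes exceeded 0.9 for Bmp5, Bmp6 and Bmp2.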

How the data were processed

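Per the submitters' processing notes, the authors used MAS5, whose version is not given here, and deposited 1 linear intensity signal per probe set and array. Arrays hold no depth, and their number limits the precision. Of 45101 probe sets, 64 controls were left out. Of the other 45037, 34945 named 1 gene, 932 several, and 9160 were not named here. Symbols of all 10 members matched a RefSeq table of GRCm38.p6 by gene ID.

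Signals became log2(signal + 3.2), 3.2 being the 25th percentile, which understates changes of dim genes. Probe sets with a mean log2 value above the median were tested (22518). The main fit in limma 3.58.1 (R 4.3.3; lmFit, eBayes with trend and robust variance) had region and pool number as terms, and was tested on simulated data. Pairing rests on shared pool numbers of littermate embryos. Deviations of same-numbered arrays correlated across probe sets at 0.79, 0.43 and 0.51 in pools 1, 6 and 7, all above the limit of 0.1. Pools 6 and 7 of unlike number also passed it, at 0.18 and 0.20.

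All members are described by their brightest probe set. From each pathway list, genes with an unadjusted p below 0.05 are named, or else the 2 with the largest difference. The 4 most correlated probe sets are named for the 3 members with the largest difference. The Id genes, Nog, Rspo3, Wnt11 and Nkx2-5 were added after their values were seen. Members and lists were chosen with earlier results of these data known.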

Additional observations from a re-analysis of the deposited data

How the results depend on the processing

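No member probe set was called in the paired limma fit or under any other setting than the one without pool 6, and the count ranged from 0 to 2 when a pool was left out. The number of all probe sets called was 36 in the paired fit. It was 0 with no replicate block, the fit without pairing by pool number, 0 without the trend and robust variance, 1 without the filter, 2 in the top 25% by signal and 22 with an offset of 1, and ranged from 9 to 231 with a pool left out. With a pool left out 1 residual degree of freedom remains, so a higher count is no stronger evidence. The block changed no call of a member. Among brightest probe sets, the sign turned for Bmpr1a under quantile normalization (-0.021) and cyclic loess (-0.037). With a pool left out, differences ranged from -0.032 to 0.074 for Bmpr1a, -0.19 to 0.21 for Bmpr1b, -0.171 to 0.016 for Bmpr2, -0.357 to 0.022 for Bmp7 and -0.30 to 0.88 for Bmp10, each turning sign. The cause was not tested. Bmp2, Bmp4, Bmp5, Bmp6 and Acvr1 kept their direction in all 12 alternatives. The dim signals of Bmp10 and Bmpr1b limit what can be said of them.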
